A study of Mus musculus with 31 samples.

Results

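H3K4me1 was compared between the hippocampus of heterozygous mice given TAK-418 and that of wild type mice given the vehicle, with 8 of the 31 libraries of the series and all 656 regions of the list that the authors deposited for these 2 groups. The 8 libraries hold 2330 of the 76231 peaks deposited for the series, and the list 656 of the 11752 regions of the 8 deposited lists. The members were chosen by their labels, as every H3K4me1 library of the 2 groups, and the list was taken whole. The first group was KMT2D+/bGeo mice that received TAK-418, an inhibitor of the lysine demethylase LSD1, by mouth at 1 mg/kg/day (4 libraries). The reference was KMT2D+/+ mice given the carrier, methylcellulose, by the same route (4 libraries). All were C57BL6, were dosed for 2 weeks from an age of 2 weeks and were 30 days old at harvest. Genotype and drug both differ between the groups, so the contributions of the allele and of the inhibitor cannot be told apart here. Each library came from 1 mouse, the whole hippocampus was used without sorting, and sex was not given in the sources used here. In such bulk tissue, a change in the number of cells of a type and a change of the mark within cells cannot be told apart.

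H3K4me1 is a methyl mark found on enhancers and on the flanks of active promoters. Kmt2d encodes one of the main methyltransferases that place it, and loss of a copy of this gene in people causes Kabuki syndrome. Kdm1a encodes LSD1, which takes methyl groups off mono- and dimethylated lysine 4 of H3. The comparison of treated heterozygotes with untreated wild type mice asks how close the mark in treated heterozygotes is to that in wild type mice.

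The tissue could not be checked against its defining genes with these peaks. In the 8 libraries, 0 peaks lay within 2 kb of an end of any of 25 genes of excitatory hippocampal neurons and synapses, of 17 genes of inhibitory neurons, of 14 of astrocytes or of 14 of the oligodendrocyte lineage. Of 14 microglial genes, Fcgr3 alone had one. Kmt2d and Kdm1a had 0 H3K4me1 peaks at their ends in every library and 0 regions in the list. The H3K4me3 libraries of the same 8 mice differed widely, with such a peak at 0 to 23 of the 25 excitatory neuron genes. Over all protein-coding genes, H3K4me3 peaks lay at an end of 12879 in treated heterozygote replicate 3. The number was 12070 in wild type vehicle replicate 3 and 62 to 1954 in the other libraries. The files hold no read counts, so the depth of the libraries is unknown.

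Of the 656 regions, 13 overlapped 14 RefSeq promoter windows (250 bases before to 50 after a gene's start, build GRCm38.p6), of 32851 windows. At 4 of the 14 windows every score of the authors' list in treated heterozygotes was above every score in wild type vehicle mice, as at 8.99% of all listed regions in either direction, and these are shown with each CG pair in capitals, since CG content sets apart the promoters that carry H3K4 methylation. The windows are C130026I21Rik (chr1:85270517-85270816, minus strand), Gm40367 (chr6:47662342-47662641, plus strand), Gm36327 (chr6:47675332-47675631, plus strand) and the lncRNA Gm33272 (chrY:90793437-90793736, plus strand).
C130026I21Rik: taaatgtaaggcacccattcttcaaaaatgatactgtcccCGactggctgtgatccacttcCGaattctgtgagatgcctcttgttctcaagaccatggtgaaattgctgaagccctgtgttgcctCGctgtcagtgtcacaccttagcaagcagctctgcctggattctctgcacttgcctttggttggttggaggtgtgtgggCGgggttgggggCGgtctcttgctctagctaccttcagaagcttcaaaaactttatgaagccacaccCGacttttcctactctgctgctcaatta
Gm40367: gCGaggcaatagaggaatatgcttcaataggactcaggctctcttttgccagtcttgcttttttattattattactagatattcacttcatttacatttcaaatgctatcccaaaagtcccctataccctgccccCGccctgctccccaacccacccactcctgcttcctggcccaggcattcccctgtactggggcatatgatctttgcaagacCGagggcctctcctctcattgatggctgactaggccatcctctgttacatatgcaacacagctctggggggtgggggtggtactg
Gm36327: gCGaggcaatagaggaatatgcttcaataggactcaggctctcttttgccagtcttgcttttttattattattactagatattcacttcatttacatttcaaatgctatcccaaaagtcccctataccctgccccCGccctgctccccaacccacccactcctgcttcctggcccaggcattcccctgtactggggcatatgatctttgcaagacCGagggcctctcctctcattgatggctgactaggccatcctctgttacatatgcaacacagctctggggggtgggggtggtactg
Gm33272: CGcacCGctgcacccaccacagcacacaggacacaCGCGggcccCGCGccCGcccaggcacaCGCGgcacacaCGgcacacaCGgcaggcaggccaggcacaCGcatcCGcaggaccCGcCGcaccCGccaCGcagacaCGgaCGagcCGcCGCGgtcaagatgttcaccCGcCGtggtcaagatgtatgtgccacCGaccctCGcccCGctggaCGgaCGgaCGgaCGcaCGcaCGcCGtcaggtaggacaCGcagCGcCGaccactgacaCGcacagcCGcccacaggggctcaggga
The windows of Gm40367 and Gm36327 were identical at 300 of 300 positions, so a read from one would match the other. They held 3 CG pairs each and that of C130026I21Rik 6, against a median of 7 over all windows. The window of Gm33272 held 39, a number reached by 4.45% of windows.

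The H3K4me1 peak lists were short in both groups. They held 354, 402, 372 and 251 peaks in the treated heterozygote libraries, against 400, 192, 271 and 88 in the wild type vehicle libraries. The ranges overlapped, since 1 wild type library had about as many peaks as the treated ones and another had the fewest of all. The means were 345 ± 65.6 and 238 ± 132 (SD, n = 4 each), a geometric ratio of 1.64 (two-sided exact permutation p = 0.229, adjusted p = 0.286 over 5 measures). The smallest p that 4 against 4 libraries can give is 0.0286. Covered length was 561, 554, 560 and 446 kb in treated heterozygotes and 705, 296, 434 and 191 kb in wild type vehicle mice (exact permutation p = 0.229). The treated libraries lay between the wild type ones in covered length per library, and without wild type vehicle replicate 1 the groups separated (exact permutation p = 0.0286, adjusted p = 0.0714). The number of protein-coding genes that had a peak no more than 2 kb from either end was 67, 74, 61 and 65 against 71, 41, 62 and 16, and the median fold enrichment of peaks was 5.02 ± 0.217 against 5.67 ± 0.772 (exact permutation p = 0.229 and 0.2). None of the 5 measures had an adjusted exact permutation p under 0.05.

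**Figure D1:**
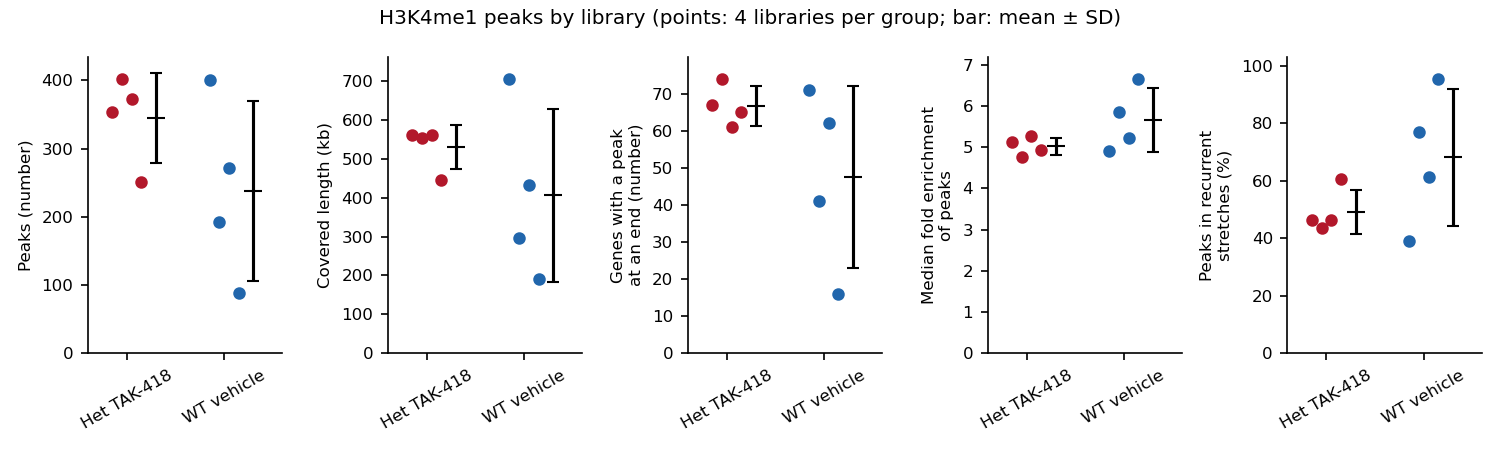
Peaks, covered length in kb, genes with a peak at an end, median fold enrichment and percent of peaks in recurrent stretches, per H3K4me1 library, with the mean ± SD of 4 libraries beside the points. The wild type vehicle libraries spread more widely, from 88 to 400 peaks, than the treated heterozygote libraries, from 251 to 402.

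Many of these peaks came from places that recurred across libraries. Stretches covered by peaks of at least 8 libraries of each mark over the whole series are called recurrent here, and there were 232 of them, covering 356.8 kb. They took up 46.3%, 43.5%, 46.5% and 60.6% of the peaks of the treated heterozygote libraries and 39.3%, 77.1%, 61.3% and 95.5% of those of the wild type vehicle libraries. The shortest wild type list thus had 4 peaks outside them. The highest fold enrichment of each library, between 6678 and 17729, lay on chromosome 2 near 98666230, and the widest peak of each lay on chromosome 11 in or near the centrosome gene Sfi1. Removal of problem regions is not described in the sources used here.

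Peaks of the 8 libraries merged into 758 regions, of which 63 were present in all 8 and 403 in 1 library. Of 259 regions that could be tested, 0 passed Fisher's exact test after adjustment, with a smallest adjusted p of 0.998. An unadjusted exact p of 0.0286, the smallest that 4 against 4 libraries can give, was reached by 3 (1.16%). So few regions at that p cannot pass the adjustment. All 3 had a peak in 4 treated heterozygote libraries and in 0 wild type vehicle libraries. One lay on chromosome 12 at 20230996 to 20234465, where the nearest protein-coding gene is Gm32719. Another lay on the X chromosome at 169990240 to 169992440, at an end of Mid1, a ubiquitin ligase gene that crosses the boundary of the pseudoautosomal region in this strain. The last lay on the Y chromosome at 90792342 to 90796971, at the distal end that also holds pseudoautosomal sequence. The X and Y regions are therefore not independent sites.

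The region list gave 1 score per library and group for each region, and the authors had kept regions with a p of at most 0.05 in this very comparison. Scores do not name their library, so they are called positions 1 to 4 of a group. Of the 656 regions, 342 had a higher mean in treated heterozygotes and 314 a lower one. In limma on log2(score + 1), 0 of 656 (0%) passed an adjusted p of 0.05, with a smallest adjusted p of 0.267, and 102 (15.5%) had an unadjusted p under 0.05. These were 82 higher (12.5%) and 20 lower (3.05%). When each score position was centred on its median, 175 had such a p, split into 84 higher and 91 lower. The split among them thus differed between the scores as deposited and the centred ones. Centring over a list kept by this very comparison can also shift the group difference, so it cannot decide between the 2 splits. The groups did not overlap at 59 regions (8.99%), of which 51 were higher (7.77%) and 8 lower (1.22%). Leaving out 1 score position in turn gave 72 to 144 such regions. Leaving out a score can only keep or add such regions, so the rise itself carries no information. The count was 144 without wild type position 1, 113 without heterozygote position 4, 96 without wild type position 4 and 93 without heterozygote position 2. The split moved as well, to 136 higher and 8 lower without wild type position 1, 52 and 44 without wild type position 4, 58 and 35 without heterozygote position 2, and 101 and 12 without heterozygote position 4. Likewise the regions with an unadjusted p under 0.05 were 55 higher and 44 lower without wild type position 4, and 54 and 41 without heterozygote position 2.

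**Figure D2:**
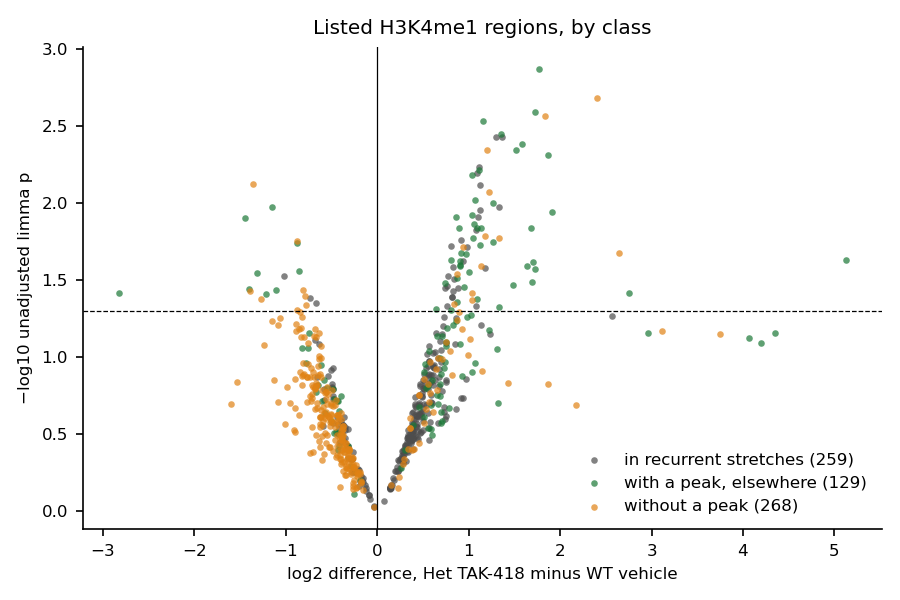
limma log2 difference, treated heterozygote minus wild type vehicle, against −log10 of the unadjusted p, for 656 listed regions in 3 classes. Regions with a peak in any library (grey and green) lie mostly to the right of 0, and most regions without one (orange) lie to the left and under the dashed line, which marks the threshold of 0.05.

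Directions were counted in regions with and without a deposited peak. The count is no independent evidence, since a higher score in a group also makes a peak call there more likely, and 315 merged peak regions were found in treated heterozygotes alone, against 166 in wild type vehicle mice alone. Of the 388 regions that overlapped a H3K4me1 peak of any of the 8 libraries, 289 were higher in treated heterozygotes and 99 lower. Of the 268 with no peak, 53 were higher and 215 lower. By class, regions in recurrent stretches were 198 higher and 61 lower, those with a peak elsewhere 91 higher and 38 lower. Without recurrent stretches, 144 of 397 regions were higher and 253 lower. At gene ends 52 were higher and 19 lower, inside genes 107 and 111, and between genes 183 and 184. Outside recurrent stretches and the Y and mitochondrial chromosomes, gene ends counted 15 higher and 13 lower. Under the same filter the counts were 32 and 78 inside genes, and 73 and 158 between genes.

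Among regions whose groups did not overlap, the largest fold was on chromosome 15 near Klf10, which encodes a zinc finger transcription factor induced by TGF-beta (38308451 to 38308800, 7740 bases from the gene and within the lncRNA Gm35248). Its scores were 83, 146, 168 and 113 in treated heterozygotes, against 76, 33, 12 and 8 in wild type vehicle mice. All 4 treated scores were above all wild type ones, although 1 wild type score came within 7 of the lowest treated score. The means were 128 ± 37.3 and 32.2 ± 31.2 (SD, n = 4 each), 3.95-fold, with a limma log2 difference of 2.40 ± 0.60 (SE) and an adjusted p of 0.267. No library had a deposited peak there. Each list is scaled on its own, and the lists share these libraries. With the same wild type vehicle mice as controls, the list for wild type TAK-418 gave this region 130, 95 and 117 against 80, 33, 12 and 9. The list against untreated heterozygotes gave 92, 160, 185 and 126 in treated heterozygotes and 64, 79, 98 and 83 in heterozygotes on vehicle.

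Fcgr3, which encodes a low-affinity receptor for IgG on microglia and macrophages, held 2 of the listed regions, on chromosome 1. The first (171063901 to 171064200, within the gene and over the tRNA gene n-TEctc5) had 63, 124, 85 and 68 in treated heterozygotes, against 26, 11, 25 and 41 in wild type vehicle mice. The groups did not overlap, and the mean was 3.30-fold higher (limma log2 difference 1.77 ± 0.42 SE, adjusted p = 0.267). The neighbouring region (171064501 to 171066150), over 3 further tRNA genes and the end of Fcgr3, had 244, 506, 450 and 440 against 385, 164, 218 and 214. Here the lowest treated score was below the highest wild type score. It carried a peak in 4 treated heterozygote libraries and 1 wild type vehicle library. Apart from the mitochondrial chromosome, these were the only listed regions over annotated tRNA genes, of which the annotation has 430. The other microglial genes of the list, 13 of 14, had no listed region.

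Tmcc1, which encodes a membrane protein of the endoplasmic reticulum, held a region on chromosome 6 (116022151 to 116022550) with 95, 111, 172 and 93 in treated heterozygotes and 48, 15, 67 and 19 in wild type vehicle mice. Camk1d encodes a calcium and calmodulin dependent kinase. Its region on chromosome 2 (5379151 to 5379550) had 267, 303, 259 and 194 in treated heterozygotes, against 170, 81, 155 and 95 in wild type vehicle mice. Both groups of scores were apart at each of these genes, by 3.16-fold and 2.04-fold in the means. Cntnap5c, of the contactin-associated protein family of neuronal surface proteins, held one on chromosome 17 (57855901 to 57856300) with 203, 210, 257 and 194 against 123, 79, 114 and 75. The treated scores were close together at Cntnap5c, 216 ± 28.1 against 97.8 ± 24.3 in wild type vehicle mice. The adjusted limma p was 0.267 for Tmcc1 and Cntnap5c and 0.275 for Camk1d.

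A further 4 of the 51 higher regions whose groups did not overlap were picked after their values were seen. Dlgap2, for a protein of the postsynaptic density, had 225, 199, 337 and 202 in treated heterozygotes and 106, 153, 150 and 59 in wild type vehicle mice. Gphn encodes gephyrin, the scaffold of inhibitory synapses, and had 396, 307, 266 and 235 in treated heterozygotes and 166, 196, 204 and 144 in wild type vehicle mice. Eef2, for a translation elongation factor, had 102, 116, 196 and 80 against 52, 59, 70 and 66 over the snoRNA gene Snord37. Smo, for the transducer of Hedgehog signals, had 1443, 1878, 1741 and 1208 in treated heterozygotes and 1173, 642, 670 and 497 in wild type vehicle mice, in a recurrent stretch. All 4 genes had limma adjusted p-values between 0.275 and 0.3.

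Among lower regions with a peak, the one at an end of Slc30a4, which encodes a zinc transporter, had 209, 133, 145 and 135 in treated heterozygotes, against 262, 219, 387 and 282 in wild type vehicle mice (chromosome 2, 122681251 to 122682300). The groups did not overlap, at 156 ± 36.1 against 288 ± 71.4 (limma log2 difference -0.88 ± 0.32 SE, adjusted p = 0.275). With the Y chromosome class described further on as a covariate, its unadjusted limma p was 0.0731, against 0.0183 without. Peaks were called there in 0 treated heterozygote and 2 wild type vehicle libraries. The list against heterozygotes on vehicle gave 170, 120, 129 and 98 in treated heterozygotes and 317, 199, 142 and 198 in heterozygotes on vehicle. The list for TAK-418 in wild type mice gave 183, 173 and 297 against 256, 210, 376 and 279. A region inside the zinc finger gene Zfp993 on chromosome 4 had 36, 27, 16 and 41 in treated heterozygotes and 75, 59, 88 and 44 in wild type vehicle mice. Its groups were apart by 3 score units.

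**Figure D3:**
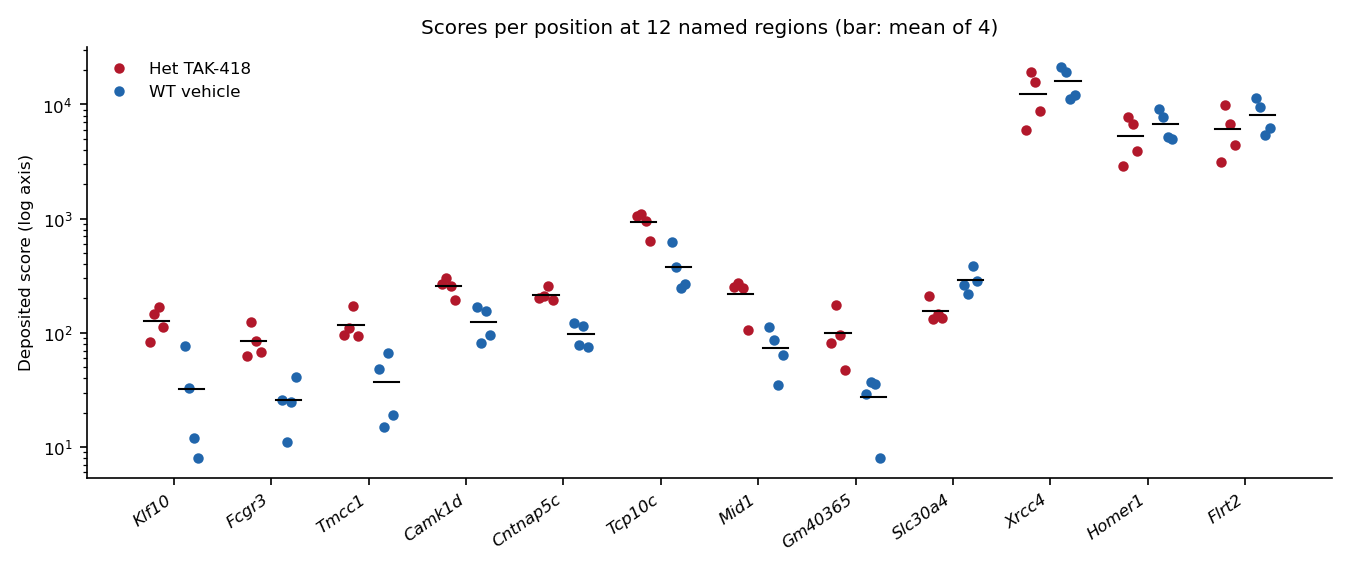
Deposited scores of the 4 positions per group at 12 named regions, on a log axis, with a bar at each mean, labelled by the gene each lies in or nearest to. At Klf10, Fcgr3, Tmcc1, Camk1d, Cntnap5c, Tcp10c and Gm40365 all treated heterozygote scores lie above all wild type vehicle scores, at Slc30a4 all lie below, and at Mid1, Xrcc4, Homer1 and Flrt2 the groups overlap.

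The authors' p ranked other regions first. A p listed as 0 was given to 2 regions, both in recurrent stretches with peaks in all 8 libraries. The one on chromosome 13 (74528451 to 74531050, over the pseudogene Gm20590) had 8722, 9975, 9144 and 5599 in treated heterozygotes, against 5290, 3629, 3570 and 2939 in wild type vehicle mice. The one on chromosome 17 (13550551 to 13553300, over the lncRNA 2700054A10Rik) had 8783, 10112, 10500 and 6009 against 5755, 3749, 3568 and 3532. Position 4 was the lowest of each group at both, the groups did not overlap, and the means were 2.17-fold and 2.13-fold higher, with an adjusted limma p of 0.271 for each. Also on chromosome 17, a region in the lncRNA Gm36684, with Tcp10c the nearest protein-coding gene, had 1046, 1089, 948 and 643 against 629, 381, 245 and 267. The 6 recurrent regions with the highest scores, on chromosomes 2, 9, 10, 12 and 14, had means within 0.9-fold and 1.14-fold of the wild type vehicle mean. Scores there went up to 8739308.

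Outside recurrent stretches, 11 of the 12 lower regions that came first by the authors' p were short windows with no peak, the exception being one in Trim30a with a peak in 1 library of each group. That within Xrcc4, for a partner of DNA ligase IV in end joining, spanned 350 bases on chromosome 13 (89868201 to 89868550). Its scores were 5998, 19298, 15760 and 8783 in treated heterozygotes and 21467, 19088, 11236 and 11987 in wild type vehicle mice. The groups overlapped widely, and the limma log2 difference was -0.45 ± 0.43 (SE, adjusted p = 0.451), beside an authors' −log10 p of 71.8. Within Homer1, which encodes a postsynaptic scaffold, the scores were 2918, 7710, 6778 and 3920 in treated heterozygotes and 9197, 7776, 5200 and 5009 in wild type vehicle mice. The region whose nearest gene is Flrt2 had 3107, 9978, 6724 and 4410 against 11502, 9507, 5356 and 6252, and that within Ctnnd2, which encodes delta-catenin, had 2127, 8726, 6597 and 3552 against 9323, 7906, 4068 and 5303. In all 4 of these, heterozygote position 1 was the lowest of 8 scores and wild type position 1 the highest. At Homer1 the list for untreated heterozygotes gave 11000, 226, 1979 and 8769 against 10014, 8629, 5735 and 5657 in wild type vehicle mice, a wide spread within a group.

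Lower regions without a peak had their extreme scores at few positions. Of 215 such regions, 95 had their lowest score at heterozygote position 1 and 86 at heterozygote position 4, and 162 (75.3%) their highest at wild type position 1. Their median length was 350 bases. Relative to the mean of the 8 log2 scores of a region, their medians were -0.62, 0.42, -0.09 and -0.59 at heterozygote positions 1 to 4, against 0.80, 0.46, 0.09 and -0.14 at the wild type positions. The groups did not overlap at 2 of them (0.93%), beside 8 of all 314 lower regions and 8.99% of the whole list. Higher regions followed another order: of 342, 213 (62.3%) had the lowest score at wild type position 4. What sets these profiles was not tested.

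**Figure D4:**
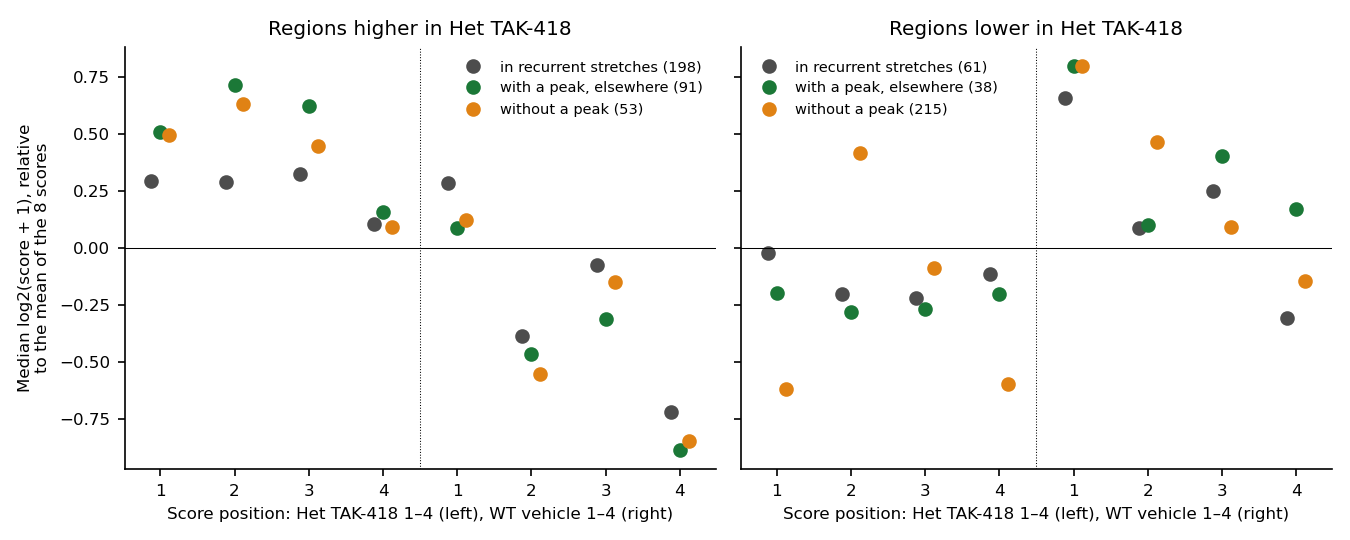
Median log2(score + 1) relative to the mean of a region's 8 scores, at each score position, for higher (left) and lower (right) regions in 3 classes. In lower regions without a peak, heterozygote positions 1 and 4 lie at -0.62 and -0.59 and position 2 at 0.42, while wild type position 1 lies at 0.80.

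Listed regions were crowded into a few places. Joined over gaps of up to 100 kb, the 656 regions formed 362 runs, of which 317 were single regions, and 7 runs of at least 10 regions held 211 (32.2%). On chromosome 1, 62 regions between 84962801 and 85345750 (32 higher, 30 lower) had genes such as Slc16a14, Gm38510 and C130026I21Rik nearest. A second run of 33 between 85458751 and 85627850 (20 higher, 13 lower) had Sp140 and Sp110, genes of nuclear body proteins, and neighbours such as Gm7592 nearest. On chromosome 11, 48 regions by Sfi1 were 38 higher and 10 lower, with 0 separated. A run of 20 in a block of zinc finger genes on chromosome 4 was 6 higher and 14 lower. Reads from near-identical copies can be placed at more than 1 site, and how the authors treated such reads is not given in the sources used here.

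Of the 7 runs, 2 were higher throughout, one on chromosome 6 and one at the distal end of the Y chromosome. Between 47655801 and 47778400 on chromosome 6, all 20 regions were higher in treated heterozygotes, and the groups did not overlap at 7, beside 8.99% of the whole list. Within Gm40365, an uncharacterised gene, a region at 47672201 had 81, 177, 96 and 47 in treated heterozygotes and 29, 37, 36 and 8 in wild type vehicle mice. At the end of Gm40367 another had 209, 210, 236 and 189 in treated heterozygotes and 162, 94, 115 and 61 in wild type vehicle mice. The list gives neighbours of 1 run separately, so their shared direction is not that of 20 independent sites.

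The regions over the promoter windows of C130026I21Rik, Gm36327 and Gm33272 had higher means in treated heterozygotes. At C130026I21Rik the scores were 573, 468, 472 and 505 in treated heterozygotes, against 427, 329, 253 and 228 in wild type vehicle mice. At Gm36327 they were 238, 313, 261 and 245 in treated heterozygotes and 208, 219, 236 and 84 in wild type vehicle mice. Gm33272 had 272, 469, 391 and 287 against 172, 171, 221 and 185. The last lies at the distal end of the Y chromosome, whose sequence continues the pseudoautosomal region. The limma adjusted p was 0.3 at C130026I21Rik, 0.389 at Gm36327 and 0.275 at both Gm33272 and Gm40367.

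The sex chromosomes divided by position. On the Y chromosome before its distal end (90 Mb), 7 listed regions with a peak had summed scores of 4131, 4001, 2319 and 102 in treated heterozygotes and of 89, 2765, 84 and 39 in wild type vehicle mice. Thus 3 of 4 treated positions and 1 of 4 wild type positions were high. Libraries had 5, 5, 3 and 0 peaks there in treated heterozygotes and 0, 3, 0 and 0 in wild type vehicle mice. One region (11857901 to 11858500) had 524, 550, 333 and 2 against 0, 195, 0 and 0. H3K4me3 libraries of the same mice had 7, 3, 10 and 0 peaks there against 0, 6, 0 and 0. Mice with and without Y chromosome signal are therefore unequal between the groups, and sex is not given. Differences between the groups, on the Y chromosome and elsewhere, can thus be told apart from an unequal number of males only in part. Outside the Y chromosome, the high positions lay wholly above the low ones at 10 of 628 regions and below at 6 (2.55% in all). With this class of the score position as a covariate, limma gave 0 adjusted calls and 78 regions at an unadjusted p under 0.05, of which 53 were higher and 25 lower. Without the covariate, 82 were higher and 20 lower. With it, the unadjusted limma p was 0.000956 at the first Fcgr3 region, 0.00188 at Tmcc1 and 0.0052 near Klf10. For Cntnap5c and Camk1d it was 0.0114 and 0.0227. At Slc30a4 and the Zfp993 region it was 0.0731 and 0.0582, against 0.0183 and 0.0106 without the covariate.

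At the distal ends of both sex chromosomes the regions lay on one side. All 14 regions beyond 90 Mb on the Y chromosome and all 9 beyond 169.96 Mb on the X chromosome were higher in treated heterozygotes, while the rest of the X chromosome had 3 higher and 22 lower. Both distal ends hold sequence of the pseudoautosomal region, which the X and Y chromosomes share, so their regions are not independent sites. By Mid1, a region at 169995951 had 251, 276, 245 and 107 in treated heterozygotes and 112, 86, 35 and 64 in wild type vehicle mice. A region further on at 170004351 had 643, 599, 861 and 370 against 363, 359, 198 and 117. The lowest treated score fell at position 4 in both, which was also the treated position without Y chromosome signal. The unadjusted limma p at 170004351 was 0.0106, and 0.0738 with the Y chromosome class as a covariate. At Asmt, which encodes the last enzyme of melatonin synthesis and also lies in this part, the scores were 232, 233, 385 and 96 against 147, 93, 148 and 64.

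Of the 21 gene lists, 4 held genes near listed regions, with 6 such genes in all. Within 100 kb of a gene end, 251 of 21900 protein-coding genes (1.15%) were nearest to a listed region. The 18 genes of H3K4 methyltransferase complexes and the 18 of H3K4 demethylases and the LSD1 complex had 0. Of 25 genes of excitatory neurons and synapses, Homer1 had a region, with a median log2 ratio of -0.35, beside 0.16 over all regions. Of 27 genes of cell adhesion and axon guidance, Ctnna2, for a neuronal alpha-catenin, and Pcdh9, for a protocadherin, each had a lower one. Pcdh9 had 62, 844, 575 and 364 in treated heterozygotes and 958, 845, 392 and 498 in wild type vehicle mice, again with heterozygote position 1 the lowest of 8. Of 12 vascular genes, Tek, for the angiopoietin receptor, had 77, 110, 98 and 28 against 139, 105, 118 and 104, and Flt1, for a VEGF receptor, had 221, 301, 284 and 252 against 237, 158, 206 and 227. Only the first Fcgr3 region among these had an unadjusted limma p under 0.05.

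H3K4me3 of the same 8 mice was set beside these regions. Its peaks overlapped 46.8%, 41.9%, 51.4% and 47.4% of the 656 regions in the treated heterozygote libraries and 51.7%, 47.7%, 34.6% and 31.9% in the wild type vehicle libraries. The means were 46.9% ± 3.88 and 41.5% ± 9.71 (SD, n = 4 each). They differed by 5.41 percentage points (exact permutation p = 0.4), more than the treated SD and less than the wild type SD. The authors' H3K4me3 list for the same groups has 2722 regions, of which 750 (27.6%) had a higher mean in treated heterozygotes. It overlapped 388 of the H3K4me1 regions (59.1%), and 368 of its own regions (13.5%) were involved. In the 430 overlapping pairs, H3K4me3 was higher in treated heterozygotes at 269 of the 289 pairs where H3K4me1 was higher (93.1%), and at 131 of the 141 where H3K4me1 was lower (92.9%). Wild type vehicle position 3 had the lowest of the 8 H3K4me3 scores at 387 of the 430 pairs. Without it, H3K4me3 was higher at 216 of the 289 pairs (74.7%) and at 88 of the 141 (62.4%), and without heterozygote position 2 at 272 and 90. The H3K4me3 libraries held 421, 359, 16167 and 536 peaks in treated heterozygotes and 715, 2281, 13343 and 768 in wild type vehicle mice.

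At single regions the H3K4me3 means could go either way relative to H3K4me1. At Slc30a4, lower in both marks, the H3K4me3 scores overlapped, with 69, 148, 16 and 134 in treated heterozygotes and 299, 109, 15 and 83 in wild type vehicle mice. At Xrcc4, lower in H3K4me1 and higher in the mean of H3K4me3, they were 12042, 21289, 8061 and 10725 against 16875, 12797, 4293 and 11177. Over the first Fcgr3 region, higher in both marks, they were 372, 281, 756 and 431 in treated heterozygotes and 330, 290, 324 and 353 in wild type vehicle mice. At Camk1d, also higher in both, they were 351, 148, 302 and 298 against 253, 197, 83 and 324. In each of these the groups overlapped in H3K4me3, whereas in H3K4me1 they did not at Slc30a4, Camk1d and Fcgr3.

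**Figure D5:**
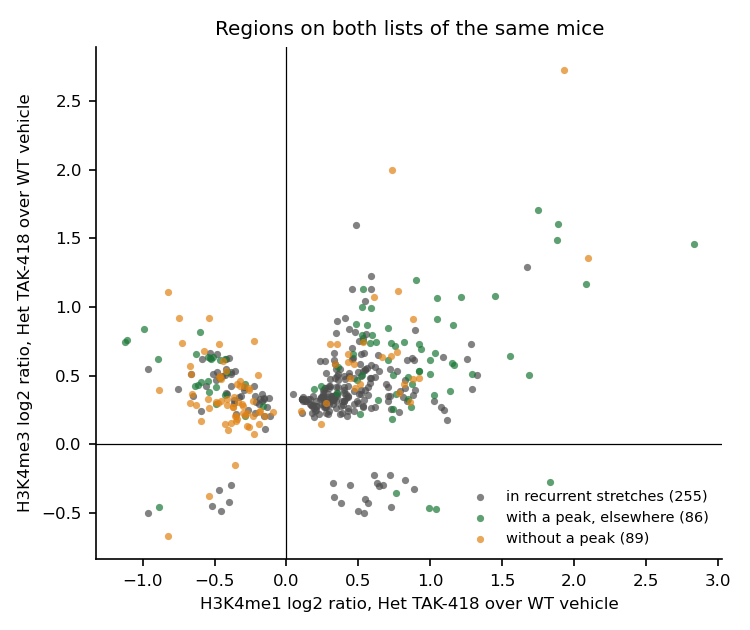
log2 ratio of mean scores, treated heterozygote over wild type vehicle, in H3K4me1 (x axis) and H3K4me3 (y axis) for 430 pairs of overlapping regions in 3 classes. Of the pairs, 400 lie above 0 on the H3K4me3 axis, and 304 would without wild type vehicle position 3.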

How the data were processed

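H3K4me1 ChIP-seq (antibody ab8895, per the labels) was taken from 8 hippocampal libraries, with H3K4me3 of the same mice beside it. Per the submitters' processing notes, the build was mm10 and MACS2, MACS and bedtools were used. The sources used here give no versions, aligner, or handling of duplicates and problem regions. Deposited broad peak lists hold the authors' fold enrichment, a ratio over background, and −log10 p and q. The deposited region lists give whole-number scores per library, normalized by the authors in an unstated way, and the authors' −log10 p. No depth can be read from either. The 6 score columns of 3 other H3K4me3 lists were not used here. The mark of lists that name none was taken as H3K4me1. The first of the 2 score columns was taken as wild type vehicle from the name of the list.

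Directions were recomputed from means. Library measures were compared by two-sided exact permutation tests, merged peaks by Fisher's exact test, and scores by limma 3.58.1 (R 4.3.3) on log2(score + 1), adjusted by Benjamini-Hochberg over all 656 regions, with the 2 groups alone and no covariate. The limma and Fisher steps were run on simulated data with known changes, and the permutation tests were not. Those runs checked the code and do not give the power in these data. Since the authors kept regions by p on these samples, the tests describe the list. Genes and promoters come from RefSeq (GRCm38.p6). The gene table gives no strand, so gene ends are either end. The named regions are the first 12 by the authors' p in each direction outside recurrent stretches and the Y chromosome, the 12 with the smallest limma p in each direction, the 6 recurrent ones with the highest mean, those near genes of the lists, 6 on the sex chromosomes, and Kmt2d and Kdm1a. The text gives part of them in full, and 1 of them is not reported here. Members, gene lists and rules were chosen with earlier results of these data known. P-values measure the spread between these mice. The 8 index sequences of the labels all differ and mark no batch. The mouse numbers were 801, 811, 814 and 815 in treated heterozygotes and 817, 843, 846 and 847 in wild type vehicle mice. What their order stands for is not given in the sources used here. Anything that follows this order cannot be told apart from the group difference. Python 3.11.15 was used with scipy 1.17.1 for exact tests, pandas 2.3.3 and numpy 2.4.6 for tables, and matplotlib 3.10.9 for figures.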

Additional observations from a re-analysis of the deposited data

Results flagged for a closer look

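Within groups of 4, 8 of 130 sets of values held 1 value far from the other 3, and chance alone gives about 1 in 20. The covered length of H3K4me1 peaks in treated heterozygote replicate 4 was 446 kb, against 554 to 561 kb in the other 3. At chromosome 2, 122681251, by Slc30a4, heterozygote position 1 scored 209 and the others 133 to 145. At the Gm38510 region of chromosome 1 (85312151), heterozygote position 3 scored 105 and the others 16 to 29. At the chromosome 13 region near Tcstv3 (120321351), heterozygote position 2 scored 2220 and the others 1352 to 1414.

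The other 4 were Y chromosome regions at which wild type vehicle position 2 stood above the other 3. It scored 556 at 145301, where the others had 7 to 13. It scored 1130 at 258401, where the others had 26 to 64. It scored 261 at 261051 and 195 at 11857901, where the others were listed at 0.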

How the results depend on the processing

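In all 18 alternatives tried for limma (pseudocounts of 0.5 and 8, an intensity trend, median centring, a mean score of at least 20, without recurrent regions, autosomes only, regions with a peak, the Y chromosome class as a covariate, and each score position left out) 0 regions passed an adjusted p of 0.05, the smallest being 0.0719 without wild type position 1. The fit with the Y chromosome class outside the Y chromosome was chosen after seeing the data. Regions with an unadjusted p under 0.05 numbered 62 of 397 without recurrent regions, and 59 to 129 when a position was left out. Without recurrent regions 144 were higher (253 lower) and 37 had groups that did not overlap. Leaving out a position, which can only keep or add regions without overlap, gave 72 to 144. By medians of the scores, the direction count kept within 1.5 times. Gene lists had 6 genes with a region within 100 kb and 2 within 20 kb. The median fold enrichment of peaks with a −log10 q of at least 5 differed by 1.297 (treated minus wild type vehicle) and that of all peaks by -0.646. The log10 difference in median peak width per library, 0.00948, became -0.00922 on autosomes and -0.0783 without recurrent peaks, and lay between -0.0226 and 0.0330 with a library left out. Of 59 named regions, 8 changed sign when a score position was left out, among them those at Ctnna2 and Trim30a and 5 of the 6 recurrent regions of highest score. The 400 overlapping pairs with higher H3K4me3 became 304 to 404 with a position left out, an alternative added after seeing the data. The other library measures, the merged peaks and the H3K4me3 share kept direction and side of the threshold. No paired analysis was possible because the groups share no mouse number in the labels. Depth is unknown and limits every peak count.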
